A study of Mus musculus with 35 samples.

Results

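The transcription factor genes Hnf4a, Nr5a2, Foxa1, Foxa2, Foxa3, Onecut1, Onecut2 and Prox1, which hold hepatocytes in their differentiated state, were followed through their open chromatin in mouse liver during tumor growth and cachexia, the wasting that accompanies some cancers. The regions described are all those of the study's merged peak table that are assigned to one of these 8 genes and lie within 100 kb of its nearest annotated start. This gave 309 of 177904 regions, each 400 bp wide, of which 308 passed the filter on low values. Hnf4a had 33 regions, Nr5a2 60, Foxa1 28, Foxa2 58, Foxa3 5, Onecut1 33, Onecut2 33 and Prox1 59 (58 of them tested). The assignment is to the nearest start, and the gene that a region regulates was not measured.

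Chromatin accessibility was measured by ATAC-seq, in which a transposase cuts exposed DNA, on about 25000 tagged hepatocyte nuclei per library. All mice carried a CAG-Sun1/sfGFP nuclear tag released by Albumin-Cre, so the purified nuclei came from cells in which the albumin promoter had been active, and all livers were taken at ZT 9. BALB/c mice formed a C26 cohort of 4 PBS controls, 4 pre-cachexia mice and 4 cachexia mice, and an NC26 cohort of 4 PBS controls and 4 tumor-bearing mice. C57BL/6N mice formed an 8025 cohort of 3 PBS controls and 4 cachexia mice, and an MC38 cohort of 4 PBS controls and 4 tumor-bearing mice. C26 and 8025 are the tumors that cause weight loss, and the cachexia mice of both cohorts were taken at a loss of more than 10% of body weight. NC26 and MC38 tumors leave weight stable. Each tumor was a single cell line, so a difference between the cachexia-inducing and the weight-stable tumors is a difference between lines. Each library is named as a sample of its own, and p-values measure the spread between these samples. The sources used here give neither age nor sex.

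Hepatocyte identity is held by a network of factors that bind one another's regulatory regions and the genes of liver metabolism. HNF4A and NR5A2 (LRH-1) are nuclear receptors, the former required for hepatocyte differentiation and the latter a regulator of bile acid and cholesterol genes. FOXA1, FOXA2 and FOXA3 are forkhead proteins, of which the first ones are known to open compacted chromatin for other factors. ONECUT1 (HNF6) and ONECUT2 are cut-homeodomain factors of liver and bile duct development, and PROX1 is a homeodomain protein that acts largely as a corepressor, among others of HNF4A and NR5A2.

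Of the 309 regions, 25 lay within 1 kb of a start. Introns held 154 (49.8%, against 46.2% of the whole table) and intergenic DNA 113 (36.6% against 33.8%), while 21 (6.80% against 12.2%) were annotated as promoter. A peak had been called in all 35 libraries at 66 of them (21.4% against 17.1% of the table) and in 1 library only at 70 (22.7% against 21.6%). The median of the regions' mean values was 18.6 tags per 10 M, against 10.9 in the whole table. Several overlap a neighbour and share its reads, and 242 overlap no region of higher mean.

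The promoter windows of the genes on which the results turn are shown because the measured promoter regions sit on or beside them. They are the 250 bases before a RefSeq start in GRCm38.p6, read 5′ to 3′ in the direction of transcription, and capitals mark the letters of a matched motif. The Hnf4a windows are chr2:163546905-163547154 (+) for the downstream start and chr2:163506607-163506856 (+) for the upstream start. The Foxa1 window is chr12:57546112-57546361 (-) and the Onecut1 window chr9:74861671-74861920 (+). For Foxa2 the window of the most upstream start is printed, chr2:148046970-148047219 (-).
Hnf4a downstream start: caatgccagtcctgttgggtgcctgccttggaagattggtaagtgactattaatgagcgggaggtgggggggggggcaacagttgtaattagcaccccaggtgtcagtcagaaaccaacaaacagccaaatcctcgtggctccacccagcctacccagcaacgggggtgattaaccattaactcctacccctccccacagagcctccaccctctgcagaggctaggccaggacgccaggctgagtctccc
Hnf4a upstream start: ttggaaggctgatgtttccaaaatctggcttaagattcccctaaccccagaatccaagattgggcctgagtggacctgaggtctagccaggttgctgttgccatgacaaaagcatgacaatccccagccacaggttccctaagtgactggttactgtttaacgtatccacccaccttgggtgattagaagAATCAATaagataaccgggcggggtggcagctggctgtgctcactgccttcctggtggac
Foxa1 start: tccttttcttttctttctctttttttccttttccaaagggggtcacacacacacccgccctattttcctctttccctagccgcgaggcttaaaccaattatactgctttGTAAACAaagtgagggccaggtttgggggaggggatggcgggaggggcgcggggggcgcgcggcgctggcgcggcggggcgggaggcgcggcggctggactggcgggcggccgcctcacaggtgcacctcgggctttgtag
Foxa2 start: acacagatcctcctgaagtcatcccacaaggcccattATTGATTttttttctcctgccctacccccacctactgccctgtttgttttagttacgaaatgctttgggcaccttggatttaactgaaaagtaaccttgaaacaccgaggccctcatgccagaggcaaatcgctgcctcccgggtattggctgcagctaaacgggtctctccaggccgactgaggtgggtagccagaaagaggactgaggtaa
Onecut1 start: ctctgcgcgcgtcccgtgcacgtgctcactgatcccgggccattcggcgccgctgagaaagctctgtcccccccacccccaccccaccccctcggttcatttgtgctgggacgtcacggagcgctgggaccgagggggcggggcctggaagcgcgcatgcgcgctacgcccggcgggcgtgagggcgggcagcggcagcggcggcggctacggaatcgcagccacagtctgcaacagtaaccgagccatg

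Capitals mark an exact match on either strand to one of 6 short motifs. These were TGTTTAC for FOXA (in 3.17% of the 250-base windows of all 32851 promoters), CAAAGTCCA for HNF4 (0.384%), ATTGATT for ONECUT (2.61%), CAAGGTCA for NR5A (1.33%), TTGCGCAA for CEBP (0.164%) and TTCCNGGAA for STAT (0.913%). Windows of 7 of the 8 genes were searched, 12 starts in all, and 9 of the 12 windows held no match. Onecut2 was not searched and is left out of these counts. The upstream Hnf4a window held an ONECUT match 60 bases before the start, and the downstream one none of the 6 motifs. The Foxa1 window held a FOXA match 141 bases before the start, and the printed Foxa2 window an ONECUT match 213 bases before it. The windows of the other Foxa2 starts, beside or over the strongest Foxa2 promoter region described below, held no match. The Onecut1 window held none either and was 71.6% G and C, against a median of 52.4% over all promoters. A match describes the letters and is no evidence of binding.

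Values are the authors' tags per region, scaled to 10 M tags per library, and since every region is 400 bp wide the levels of different regions can be set side by side. Libraries held 11.3 to 23.8 M tags (median 15.7), except replicate 1 of the NC26 tumor group with 3.47 M. Tests were made on log2 values after division by a composition factor per library (0.80 to 1.25), whereas the values printed for single libraries are undivided. Scaling by library totals instead moved the median change of all regions by 0.11 for pre-cachexia against PBS and for NC26 tumor against PBS, and by 0.06 or less in the other comparisons. The hepatocyte label was checked on promoter regions. Of 8 hepatocyte markers 6 had one, with a median of 134 tags, the highest value at Alb (279) and the lowest at Serpina1a (28.3). Ttr and Tf had none. Of 9 macrophage markers 2 had one (median 4.37), of 7 endothelial markers 1 (Kdr, 8.62), of 7 lymphocyte markers 0, and of 6 neutrophil markers 2 (median 23.8, Elane at 41.6 and S100a8 at 5.98). Of 6 stellate cell markers 4 had one (median 14.2, led by Reln). Elane reads close to the Prox1 promoter described below. Among 6 cholangiocyte markers 3 had one, led by Sox9 (55.8), while Krt19, Krt7 and Cftr had none.

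Some of these values moved with cachexia. The summed promoter signal of the cholangiocyte list was 37.7 to 67.2 in C26 PBS and 72.6 to 82.6 in C26 cachexia, and 65.9 to 93.1 in 8025 PBS and 92.1 to 120 in 8025 cachexia. The neutrophil sum was 28.2 to 48.1 against 52.8 to 57.7 in C26, and 38.3 to 42.4 against 46.7 to 73.6 in 8025. The macrophage sum was 5.09 to 12.2 against 7.13 to 12.7 in C26 and 5.66 to 10.6 against 12.1 to 19.2 in 8025. The stellate sum was 51.7 to 85.4 against 56.5 to 72.3 in C26, and lower in cachexia in 8025, at 77.6 to 100 against at most 75.9. The single endothelial region, at Kdr, read 7.97 to 10.2 against 10.3 to 14.8 in C26 and 4.99 to 9.26 against 7.37 to 11.2 in 8025. The share of all signal in promoters was 40.61% to 42.13% in C26 PBS and 42.17% to 42.89% in C26 cachexia. In 8025 it did not rise, at 41.39% to 43.1% in PBS and 39.66% to 42.33% in cachexia, which overlap. The part of these shifts in the results below was not tested. In such bulk libraries, fewer nuclei with an open region and less signal per nucleus cannot be told apart.

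The promoters of the 8 genes were open in every group. For each gene the promoter region is the one of highest mean within 1 kb of a start. Averaged over all 35 libraries, Nr5a2 stood highest (158 tags), followed by Onecut2 (152), Foxa3 (150), Hnf4a (142), Onecut1 (136), Foxa2 (128), Foxa1 (86.3) and Prox1 (44.9). The gaps between neighbours from Nr5a2 to Foxa2 (1.71 to 8.54 tags) were smaller than the SD of either region pooled within the 9 groups (15.9 to 30.4), and each of these pairs kept its order in only 5 or 6 of the 9 groups. The order within a group can differ, and in C26 cachexia Nr5a2 (129) lay below Onecut2 (157), Foxa3 (153) and Hnf4a (148). The gaps from Foxa2 to Foxa1 (41.4) and from Foxa1 to Prox1 (41.3) exceeded the pooled SDs, and both held in all 9 groups. In C26 PBS, for instance, Prox1 read 42.3 ± 10.5 (SD, n = 4) and Foxa1 74.1 ± 14.2. The Foxa3 region, 61 bp upstream of its start, is annotated to the divergent gene Sympk and may belong to both.

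**Figure D1:**
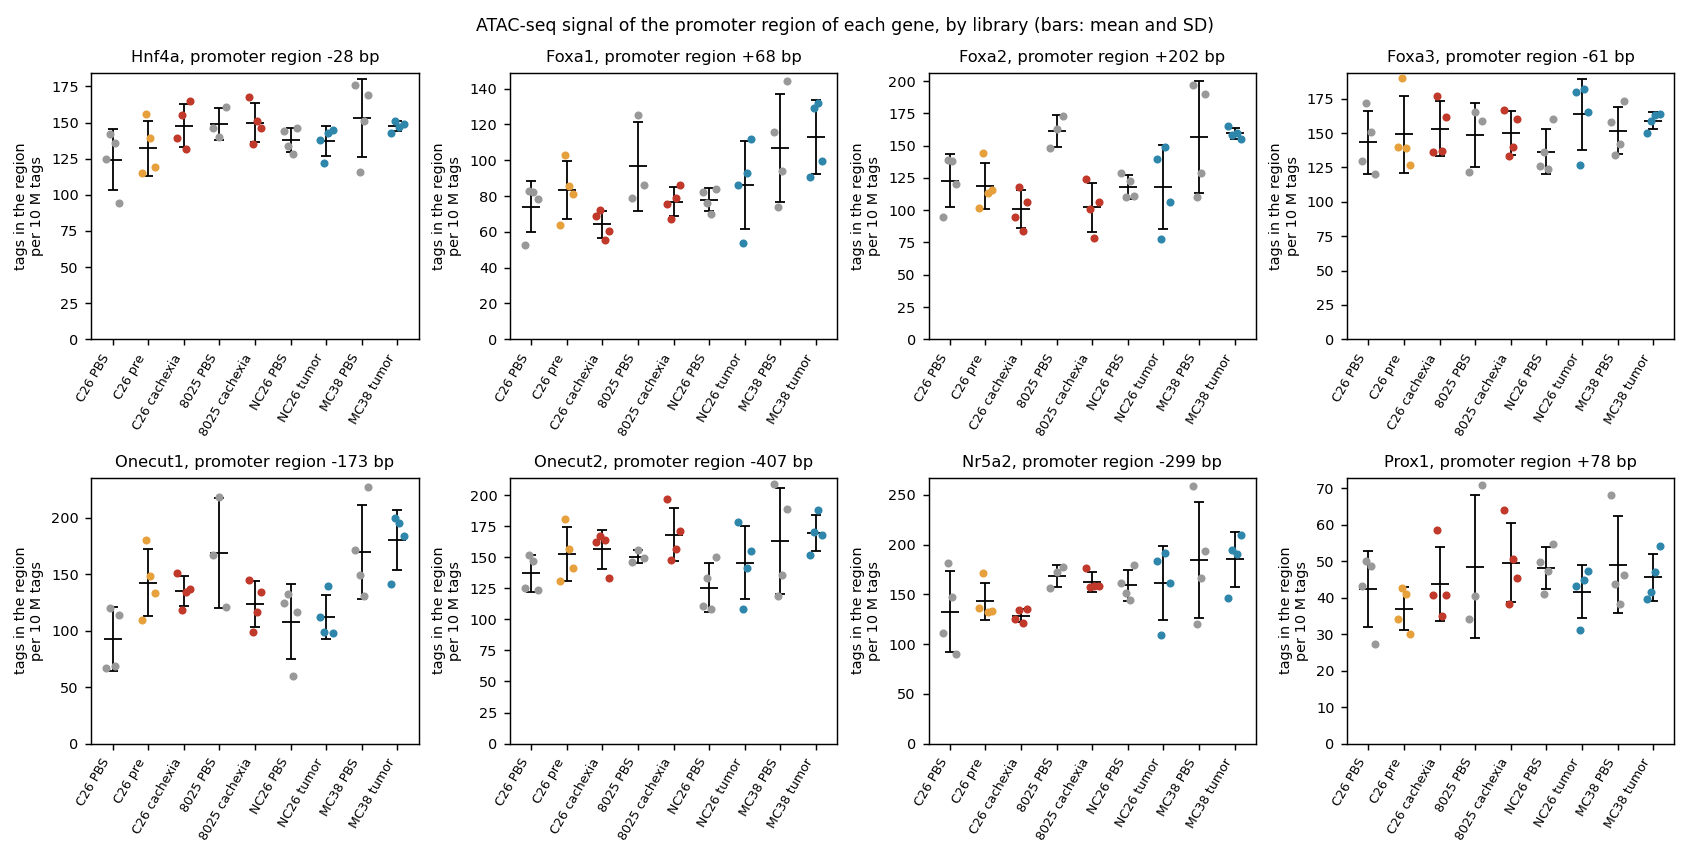
Promoter accessibility of the 8 genes in each library. Each panel is a gene, the x axis the 9 groups and the y axis tags per region per 10 M tags, with points for libraries and bars for mean and SD. The 4 cachexia libraries of the 8025 cohort sit at 78.1 to 124 for Foxa2, all below the 3 PBS libraries at 148 to 173, and no other gene has a called change between a tumor group and its PBS controls.

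C26 cachexia is the first of the 2 wasting models. Against C26 PBS, 17 regions rose and 19 fell, which is 11.7% of the 308 tested, against 14.0% called over the whole table (6.91% higher and 7.13% lower). None of the 25 regions within 1 kb of a start passed limma's test, although 6 of them had an unadjusted p under 0.05, against 75 of the 283 farther regions. Whether promoter and distal regions differ was not tested. The share called among all regions of the table within 1 kb of a start was not determined for either model. Nor was the share of all regions with an unadjusted p under 0.05, so such counts here and below have no baseline. Scaled by library totals the split was 16 higher and 8 lower. Foxa2 had 6 regions higher and 1 lower, and Prox1 4 higher and 1 lower. Foxa1 had 0 higher and 6 lower, Onecut2 1 and 4, Nr5a2 3 and 5, Hnf4a 2 and 0, Onecut1 1 and 1, and Foxa3 0 and 1. The median change was 0.04 (log2), against -0.01 over all regions.

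8025 cachexia, the model in C57BL/6N mice, gave 17 higher and 31 lower regions, 15.6% of those tested against 12.4% over the whole table (6.99% higher and 5.38% lower). Foxa2 had 12 of 58 regions lower and 4 higher, and Foxa1 9 of 28 lower and 1 higher. Onecut2 had 4 higher and 0 lower, Prox1 4 and 3, Nr5a2 3 and 4, Hnf4a 1 and 1, Onecut1 0 and 1, and Foxa3 0 and 1. Within 1 kb of a start 4 of 25 regions fell, all of them among the 6 of Foxa2. The split moved to 19 higher and 25 lower with DESeq2-type (RLE) factors and to 15 and 15 with library totals. Without replicate 1 or 2 of the PBS group the number called dropped to 31 (13 higher, 18 lower) and 24 (10 and 14), and without replicate 3 of the cachexia group to 29 (12 and 17).

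Hnf4a, the nuclear receptor at the centre of the network, had no promoter change past the threshold in either model. Its promoter region, 28 bp upstream of the downstream start (chr2:163546927-163547327), held 125, 142, 136 and 94.2 tags in C26 PBS and 139, 155, 132 and 165 in C26 cachexia. The groups overlap, and the change of 0.20 ± 0.09 (log2 ± SE) did not pass the test (adjusted p = 0.15, 95% interval 0.01 to 0.40). In the 8025 cohort the PBS libraries held 146, 140 and 161 tags and the cachexia libraries 168, 135, 151 and 146, a change of -0.05 ± 0.10 (adjusted p = 0.84, interval -0.25 to 0.16). These groups overlap as well. At the upstream start, 87 bp before it, the region averaged 70.0 ± 8.24 in C26 PBS and 70.6 ± 7.52 in C26 cachexia (n = 4 each, adjusted p = 0.9).

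The Hnf4a region that rose most firmly in C26 cachexia lies 8433 bp inside the gene, in intron 3 of 9 (chr2:163555388-163555788), and is the highest distal region of the gene. It held 51, 70.7, 54.5 and 40.9 tags in C26 PBS, 60.8, 63.5, 58.9 and 70.9 in pre-cachexia and 81.8, 96.5, 80.4 and 81.9 in cachexia. All cachexia libraries exceed all PBS and pre-cachexia libraries. The change against PBS was 0.61 ± 0.13, a fold of 1.53 (adjusted p = 0.00057), and held in all 20 alternatives. Against pre-cachexia it was 0.47 ± 0.13 (adjusted p = 0.02), and 0.2 with library totals. In the 8025 cohort the values were 58.6, 53.6 and 74.1 in PBS and 91.4, 72.5, 81.5 and 70.1 in cachexia. Those groups overlap (0.29 ± 0.14, adjusted p = 0.17).

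A further Hnf4a region at +7529 bp rose in C26 cachexia by 0.92 (adjusted p = 0.0062, and 0.07 without replicate 4 of the PBS group). In 8025 cachexia the region at +1658 bp fell, from 36.8, 42.3 and 36.5 tags in PBS to 24.2, 25.4, 15.8 and 18.3 in cachexia. The groups do not overlap, and the change was -0.92 ± 0.23 (adjusted p = 0.0041). The region at +17580 bp rose by 0.92 (adjusted p = 0.048) and lost its call in 10 alternatives, among them each of the 3 that leave out a PBS library.

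Nr5a2, the other nuclear receptor, gained signal in 8025 cachexia at the far end of the gene. The region lies at +93977 bp, in intron 8 of 8 (chr1:136859453-136859853), and carried a peak in all 35 libraries. It held 22.4, 23.3 and 31.9 tags in 8025 PBS and 76.0, 68.8, 120 and 78.3 in 8025 cachexia. The lowest cachexia library is more than 2-fold above the highest PBS library, and the fitted change was 1.62 ± 0.22, a fold of 3.08 (adjusted p = 1.1e-06). In the C26 cohort the region held 20.5, 22.3, 30.3 and 19.6 tags in PBS, 31.4, 32.5, 27 and 23 in pre-cachexia, and 42.8, 25.3, 43.8 and 21.9 in cachexia. Those groups overlap (0.42 ± 0.21, adjusted p = 0.19). MC38 PBS libraries held 27.3, 18.5, 22.8 and 24.6 and MC38 tumor libraries 16.3, 29.6, 34.2 and 31.9. The change in 8025 exceeded that in MC38 by 1.46 ± 0.30 (adjusted p = 0.0056).

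Upstream of Nr5a2, an intergenic region at -10735 bp (chr1:136970983-136971383) fell in both models. It held 38, 62.1, 48.9 and 39.1 tags in C26 PBS, 27.1, 49.4, 23.2 and 32.6 in pre-cachexia and 24.8, 28.9, 19.4 and 18.2 in cachexia. The cachexia libraries lie below all PBS libraries, by -1.06 ± 0.17 (adjusted p = 1.3e-05). In pre-cachexia the change was -0.63 ± 0.17 (adjusted p = 0.05), a call that ended in 14 of 20 alternatives. The 8025 libraries held 43, 35.2 and 47.3 tags in PBS and 24.6, 23.5, 19.4 and 20.6 in cachexia, again without overlap (-0.94 ± 0.18, adjusted p = 0.00032). In MC38 it held 65.3, 27.3, 41.1 and 58.3 in PBS and 35.5, 57.2, 60.8 and 58.6 with tumor. The 8025 change differed from the MC38 change by -1.07 ± 0.25 (adjusted p = 0.015, 0.12 with library totals and 0.055 without replicate 1 of 8025 PBS).

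Other Nr5a2 regions moved as well. A region at -92917 bp fell in both models, by -1.09 in C26 and -0.83 in 8025. One at -84806 bp fell in C26 by -1.43 (adjusted p = 0.0024), and one at +17804 bp fell in 8025 by -1.05 (adjusted p = 0.0019). The promoter region at -299 bp (chr1:136960547-136960947) averaged 133 ± 40.6 tags in C26 PBS and 129 ± 7.19 in C26 cachexia, and 169 ± 11 (n = 3) in 8025 PBS and 163 ± 9.86 in 8025 cachexia. Its changes were -0.04 (interval -0.25 to 0.16) and -0.10 (interval -0.33 to 0.12), and neither passed the test.

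Foxa2 was the gene with a called fall of its promoter, in the 8025 cohort. The region at -76 bp (chr2:148046845-148047245), which covers the Foxa2 window printed above, held 138, 182 and 125 tags in 8025 PBS and 96.4, 74.4, 58.5 and 88.4 in 8025 cachexia. All 4 cachexia libraries lie below all PBS libraries, and the change was -0.95 ± 0.14 (adjusted p = 7.7e-06), a fold of 1.93 lower. In the C26 cohort the same region held 87.5, 158, 127 and 100 tags in PBS, 114, 158, 107 and 116 in pre-cachexia and 107, 87.4, 86.2 and 91.2 in cachexia. Those groups overlap, and the change of -0.37 ± 0.13 did not pass (adjusted p = 0.058). MC38 PBS libraries held 222, 123, 132 and 182 and MC38 tumor libraries 141, 167, 183 and 137. The 8025 change differed from the MC38 change by -0.86 ± 0.20 (adjusted p = 0.013), but not with library totals (0.13) or without replicate 2 of 8025 PBS (0.092).

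The strongest Foxa2 promoter region, at +202 bp from a second start (chr2:148045546-148045946), moved the same way. It held 148, 163 and 173 tags in 8025 PBS and 124, 101, 78.1 and 106 in 8025 cachexia (-0.72 ± 0.13, adjusted p = 9e-05). In C26 it held 95.0, 139, 138 and 120 in PBS and 95.0, 118, 83.6 and 106 in cachexia, which overlap (-0.34 ± 0.12, adjusted p = 0.052). The C26 change minus the 8025 change was 0.39 ± 0.18 and was not called (adjusted p = 0.5). The difference of the 8025 change from the MC38 change was -0.74 ± 0.18 (adjusted p = 0.017, 0.18 with library totals, 0.06 without replicate 2 of 8025 PBS and 0.055 without replicate 3 of 8025 cachexia). The neighbouring regions at -104 and -403 bp fell in 8025 by -0.69 (adjusted p = 0.00021) and -0.45 (adjusted p = 0.011). The first of these overlaps the +202 region and shares its reads.

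A cluster of weak regions 33 kb upstream of Foxa2 gained signal in both models, whereas the fall of its promoter was called in 8025 only. The intergenic region at -33600 bp (chr2:148080369-148080769), called as a peak in 18 libraries, held 4.70, 5.42, 5.57 and 3.98 tags in C26 PBS, 10.7, 11.3, 11.1 and 10.8 in pre-cachexia and 16.9, 18.2, 19.4 and 9.60 in cachexia. Every pre-cachexia and cachexia library exceeds every PBS library. The change in cachexia was 1.45 ± 0.28, a fold of 2.73 (adjusted p = 0.00018), and that in pre-cachexia 0.94 ± 0.28 (adjusted p = 0.08). In 8025 it held 8.10, 7.05 and 6.17 in PBS and 30.2, 26.9, 30.9 and 27.4 in cachexia. This is a change of 1.83 ± 0.30, a fold of 3.56 (adjusted p = 2.3e-05). Neither call in cachexia was lost in any alternative.

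The weight-stable tumors moved the -33600 bp region the same way without passing the test. MC38 PBS libraries held 3.25, 5.29, 1.90 and 3.37 tags and MC38 tumor libraries 6.51, 13.8, 10.4 and 7.58. The groups do not overlap, and the change was 1.19 ± 0.28 with an unadjusted p of 9.6e-05 and an adjusted p of 0.14. NC26 PBS libraries held 4.98, 3.85, 5.67 and 4.25 and NC26 tumor libraries 7.19, 5.14, 15.5 and 7.64 (0.60 ± 0.28, adjusted p = 0.44). The region at -33363 bp, which overlaps it, held 4.70, 4.78, 2.79 and 5.07 tags in C26 PBS and 15.6, 17.4, 14.3 and 11 in C26 cachexia (1.51 ± 0.32, adjusted p = 0.00073). The 8025 libraries held 5.30, 3.17 and 6.69 in PBS and 28.4, 22.3, 26.7 and 20.1 in cachexia (2.05 ± 0.35, adjusted p = 4.1e-05). A region at -67785 bp rose by 1.02 and 1.14 in the 2 models.

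**Figure D2:**
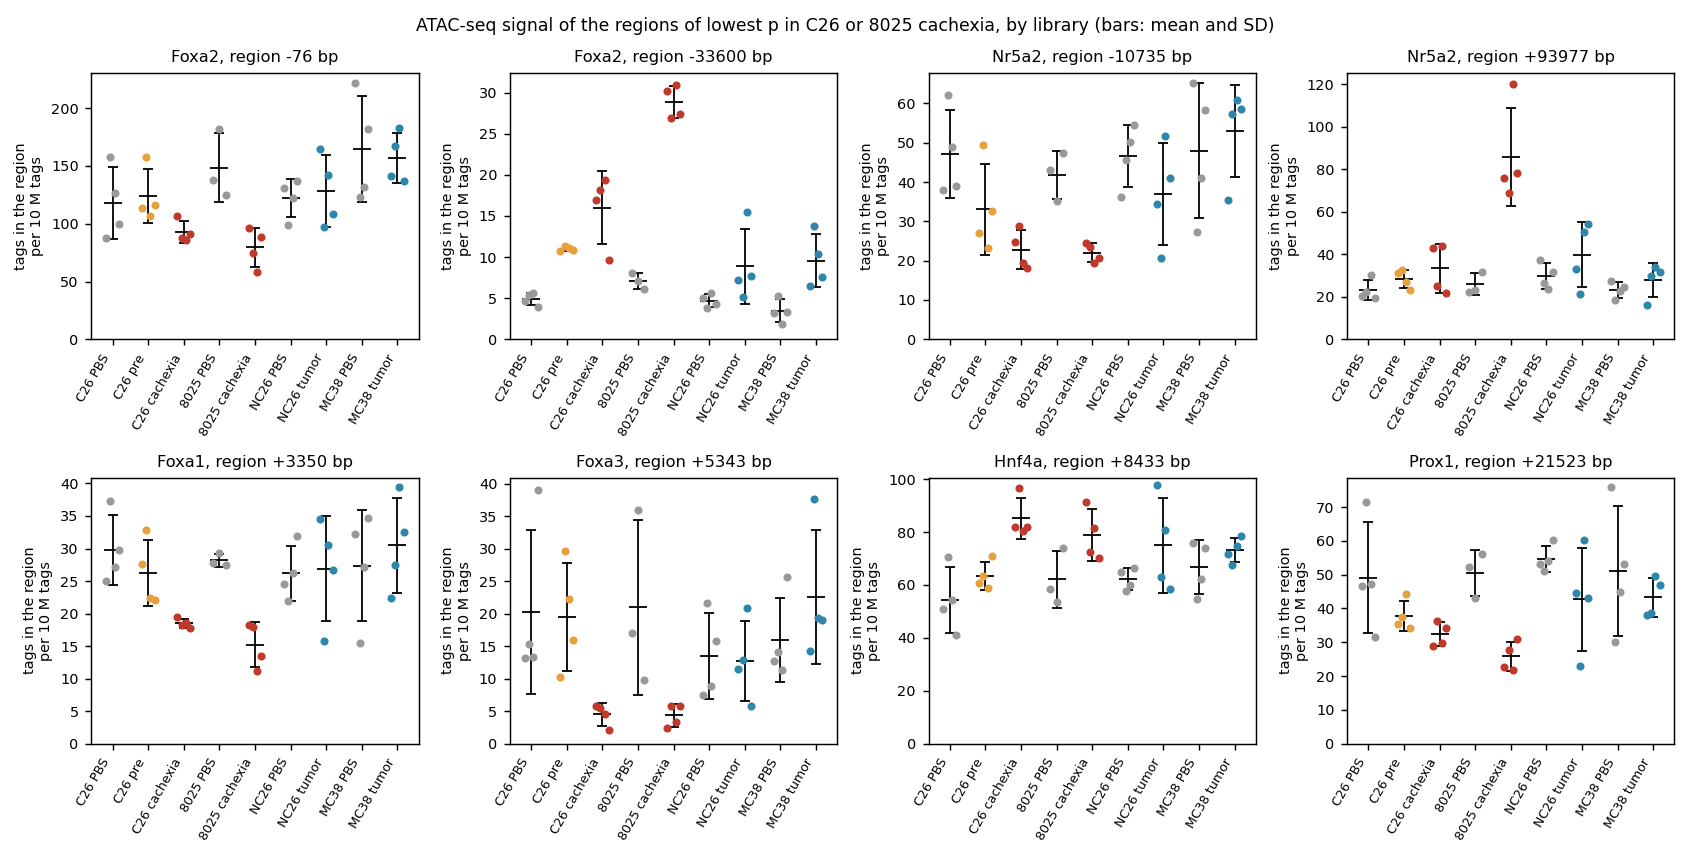
Accessibility of 8 regions in each library, chosen as those of lowest p in C26 or 8025 cachexia (the lowest rising and falling ones for Foxa2 and Nr5a2), with the 9 groups on the x axis and tags per region per 10 M tags on the y axis. Points are libraries and bars mean and SD. The Foxa2 region at -33600 bp reads 9.60 to 19.4 in C26 cachexia and 26.9 to 30.9 in 8025 cachexia, above the PBS libraries of its cohort, and the Nr5a2 region at +93977 bp stands apart in 8025 cachexia at 68.8 to 120.

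On the downstream side of Foxa2, the intergenic region at +46690 bp held 9.39, 14.0, 12.4 and 9.78 tags in C26 PBS, 30.0, 31.7, 22.2 and 25.3 in pre-cachexia and 39.3, 24.1, 31.1 and 19.2 in cachexia. The pre-cachexia libraries already exceed all PBS libraries (1.10 ± 0.25, adjusted p = 0.011, and 0.061 without replicate 1 of pre-cachexia), as do the cachexia libraries (1.17 ± 0.25, adjusted p = 0.00061). It was the only region of the 8 genes called higher in pre-cachexia. In 8025 it held 17.1, 19.4 and 17.5 in PBS and 25.4, 23.3, 23.6 and 25.9 in cachexia, without overlap but short of the threshold (0.38 ± 0.27, adjusted p = 0.42). The region at +4980 bp fell in both models, by -0.75 in C26 and -1.07 in 8025.

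A weak region at +81458 bp, called as a peak in 1 library, fell in 8025 from 7.48, 11.6 and 7.20 tags to 2.96, 0.480, 0.420 and 0.580 (-2.35 ± 0.43, adjusted p = 0.00012). At such levels the fold depends on the pseudocount of 1. In MC38 it held 4.55, 5.29, 3.79 and 4.71 in PBS and 4.23, 13.8, 7.85 and 6.59 with tumor, and the difference between the 2 changes was -2.90 ± 0.59 (adjusted p = 0.0045). The most open distal region of Foxa2, at +76650 bp with a mean of 162 tags, did not pass in C26 (-0.08, adjusted p = 0.68) or in 8025 (-0.25, adjusted p = 0.1).

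At Foxa1, 6 of 28 regions fell in C26 cachexia and 9 of 28 in 8025 cachexia, and the promoter region passed in neither. The promoter region at +68 bp (chr12:57545843-57546243) held 52.9, 82.8, 82.0 and 78.6 tags in C26 PBS and 68.9, 72.0, 55.7 and 60.3 in C26 cachexia, which overlap (-0.24 ± 0.14, adjusted p = 0.28). The 8025 libraries held 78.8, 125 and 86.2 in PBS and 75.4, 66.9, 78.9 and 86.4 in cachexia (-0.35 ± 0.15, adjusted p = 0.12, interval -0.67 to -0.04). Inside the gene, the region at +3350 bp in exon 2 of 2 (chr12:57542561-57542961), a peak in 3 libraries, held 25, 37.3, 27.2 and 29.7 in C26 PBS and 19.5, 18.2, 18.5 and 17.8 in C26 cachexia. Every cachexia library lies below every PBS library (-0.70 ± 0.18, adjusted p = 0.0045, and 0.056 with library totals). In 8025 it held 27.7, 29.3 and 27.5 in PBS and 18.3, 17.9, 11.2 and 13.4 in cachexia (-0.92 ± 0.19, adjusted p = 0.00063).

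In MC38 the +3350 bp region held 32.2, 15.4, 27.2 and 34.7 tags in PBS and 22.4, 27.4, 39.5 and 32.6 with tumor, and the 8025 change differed from this by -1.05 ± 0.26 (adjusted p = 0.023). That call was lost in 6 of 27 alternatives, with adjusted p between 0.056 and 0.11, among them the leaving out of replicate 1 or 2 of 8025 PBS. The regions at +2182 and +6664 bp fell by -0.73 and -0.49 in C26 and by -0.77 and -0.75 in 8025. The most open distal region, at +2732 bp in intron 1, fell in 8025 by -0.49 ± 0.13 (adjusted p = 0.011, and 0.15 with library totals).

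Far downstream, the region at +99027 bp (chr12:57446884-57447284) lies in intron 9 of Mipol1. It held 23.5, 22.9, 22.3 and 25.4 tags in C26 PBS, 17.7, 38.1, 24.9 and 21.6 in pre-cachexia and 12.1, 16.6, 8.43 and 11 in cachexia. The cachexia libraries lie below both other groups, by -1.0 ± 0.24 against PBS (adjusted p = 0.0025) and -0.96 against pre-cachexia (adjusted p = 0.0095). The latter call ended without replicate 2 of pre-cachexia (0.079) or replicate 3 of cachexia (0.055). In 8025 the values were 15.9, 21.1 and 13.9 in PBS and 8.87, 7.75, 9.68 and 12.2 in cachexia (-0.80, adjusted p = 0.032). The region also read lower with the weight-stable MC38 tumor, at 6.51 to 10.5 against 10.1 to 22.6 in MC38 PBS, which overlap. In NC26 it did not, at 18.8 to 31.9 with tumor against 13.6 to 26.7 in PBS. Neither was called. One Foxa1 region went the other way in 8025 cachexia, at +40540 bp. It held 5.92, 4.94 and 4.89 in 8025 PBS and 16, 15, 24.4 and 11.1 in 8025 cachexia, a rise of 1.40.

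**Figure D3:**
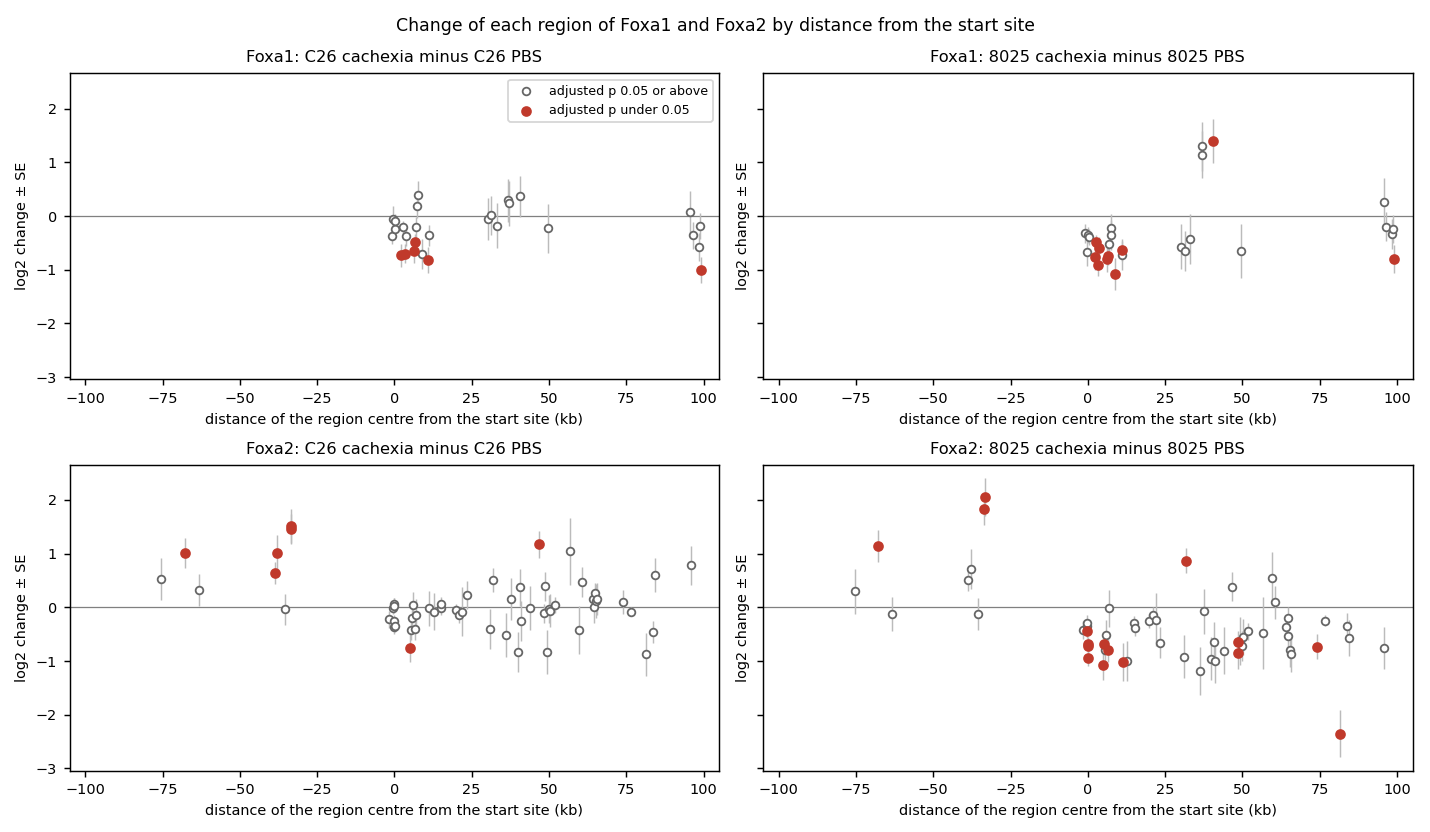
Change at each region of Foxa1 and Foxa2 by its distance from the start, in C26 cachexia and in 8025 cachexia against their PBS controls. The x axis is distance in kb, the y axis the log2 change with its SE, and filled red points have an adjusted p under 0.05. At Foxa1 the called points lie below 0 except the one at +40540 bp in 8025, and at Foxa2 the points 33 kb upstream lie above 0 in both models.

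Foxa3, the third member of the family, showed an open promoter with no called change beside an intronic region that nearly closed. The promoter region at -61 bp (chr7:19023400-19023800) changed by 0.04 ± 0.10 in C26 (interval -0.15 to 0.24) and -0.03 ± 0.10 in 8025 (interval -0.25 to 0.18). At +5343 bp in the gene's only intron (chr7:19017996-19018396), C26 PBS libraries held 13.2, 15.3, 13.3 and 39.1 tags, pre-cachexia libraries 10.2, 29.6, 22.2 and 15.9, and cachexia libraries 5.81, 5.54, 4.54 and 2.06. The cachexia libraries are below all others of the cohort, and 1 PBS library, replicate 4, stands far above the rest. The change was -1.93 ± 0.43, a fold of 3.81 lower (adjusted p = 0.0017), and -1.83 ± 0.43 against pre-cachexia (adjusted p = 0.0075).

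In 8025 the same Foxa3 region held 17.1, 36 and 9.77 tags in PBS and 2.37, 5.82, 3.37 and 5.82 in cachexia. The groups do not overlap (-1.96 ± 0.46, adjusted p = 0.0037), although without replicate 2 of PBS, the highest library, the adjusted p was 0.056. With the weight-stable tumors it held 12.7, 14.1, 11.4 and 25.6 in MC38 PBS, 14.3, 37.7, 19.4 and 19.1 in MC38 tumor, 7.47, 21.7, 8.92 and 15.8 in NC26 PBS, and 11.5, 12.8, 20.8 and 5.73 in NC26 tumor. Those pairs of groups overlap. The 8025 change differed from the MC38 change by -2.36 ± 0.63 (adjusted p = 0.044), a call that ended in 12 of 27 alternatives.

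Onecut1, the cut-homeodomain factor, varied widely between libraries of a group. Its promoter region at -173 bp (chr9:74861548-74861948) held 67.2, 120, 68.7 and 114 tags in C26 PBS, 109, 180, 148 and 133 in pre-cachexia and 151, 118, 134 and 137 in cachexia. The groups overlap, and neither change of 0.54 ± 0.22 passed (adjusted p = 0.28 in pre-cachexia and 0.1 in cachexia). The 8025 libraries held 167, 218 and 121 in PBS and 145, 98.9, 116 and 134 in cachexia (-0.47 ± 0.23, adjusted p = 0.21). The spread of the C26 PBS libraries limits what can be seen here. In pre-cachexia against PBS, 14 of the gene's 33 regions had an unadjusted p under 0.05 with none called, at a median change of 0.78. Only 26 of the 33 overlap no region of higher mean, so these are not separate results. Whether the spread hid a change was not tested.

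One Onecut1 region rose in C26 cachexia, at +2805 bp in intron 1, from 13.7, 26.8, 13 and 38.4 tags in PBS to 57.5, 55.8, 50.2 and 54.9 in cachexia, with 36.5, 52.2, 27.6 and 49.9 in pre-cachexia. All cachexia libraries exceed all PBS libraries (1.30 ± 0.36, adjusted p = 0.013, and 0.063 without replicate 3 of PBS). In 8025 the same region averaged 44.8 ± 19.7 (n = 3) in PBS and 36.6 ± 14.6 (n = 4) in cachexia, which overlap (-0.30 ± 0.39, adjusted p = 0.7). A region at +38421 bp fell by -0.58 in each model, a call that ended in 7 of 20 alternatives for C26 and in 11 for 8025, library totals among both.

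Onecut2, the paralog of Onecut1, had its promoter region at -407 bp at 137 ± 14.7 tags in C26 PBS and 157 ± 15.9 in C26 cachexia (0.14 ± 0.10, adjusted p = 0.39), and at 150 ± 5.17 (n = 3) and 169 ± 21.3 in 8025 (0.10 ± 0.10, adjusted p = 0.61). In its single intron at +8846 bp, C26 PBS libraries held 38.2, 47.8, 45.8 and 43.5, pre-cachexia libraries 42.9, 57.8, 38.1 and 36.3, and cachexia libraries 30.6, 28.1, 30.5 and 21.9. The cachexia libraries lie below all others (-0.70 ± 0.17 against PBS, adjusted p = 0.0033, lost in no alternative). In 8025, regions at -7819, -8056 and +42310 bp rose by 0.83, 0.71 and 0.82. Each of these calls ended when some single libraries were left out, the first of them with adjusted p of 0.11 without replicate 2 and 0.12 without replicate 4 of PBS. The regions at -7819 and -8056 bp overlap and share reads. At -8056 bp MC38 libraries held 20.5, 7.93, 15.8 and 17.9 in PBS and 24.4, 28.4, 40.1 and 19.1 with tumor. NC26 libraries held 16.2, 21.3, 20.7 and 26.4 in PBS and 31.7, 19.7, 26.9 and 34.7 with tumor. Neither was called.

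Prox1, the corepressor, had the lowest promoter signal of the 8 genes. In C26 cachexia 4 of its 55 regions farther than 1 kb rose and 1 fell, a share of 9.09% called. Over all regions of the table, at any distance, 14.0% were called. The promoter region at +78 bp (chr1:190170549-190170949) read 42.3 ± 10.5 in C26 PBS and 43.7 ± 10.2 in C26 cachexia (0.01 ± 0.17, interval -0.35 to 0.37), and 48.4 ± 19.6 (n = 3) and 49.5 ± 10.8 in 8025 (0.03 ± 0.19, interval -0.36 to 0.42). The intergenic region at +62583 bp (chr1:190106732-190107132) held 76.2, 115, 78.6 and 42 tags in C26 PBS, 76.7, 94.2, 81.9 and 84.3 in pre-cachexia and 121, 109, 113 and 112 in cachexia. Cachexia libraries exceed the pre-cachexia libraries, while PBS replicate 2 reaches their level (0.57 ± 0.13 against PBS, adjusted p = 0.0022). A region at -34065 bp, in the antisense gene Prox1os, rose by 0.47 (adjusted p = 0.0056).

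In the body of Prox1, the region at +21523 bp held 52.4, 43 and 56.1 tags in 8025 PBS and 22.8, 27.6, 21.7 and 31.1 in 8025 cachexia, without overlap (-1.0 ± 0.18, adjusted p = 0.00013). In C26 it held 46.5, 71.4, 47.1 and 31.5 in PBS, 35.4, 37.4, 44.3 and 34.3 in pre-cachexia, and 29, 36.4, 29.8 and 34.3 in cachexia. Here PBS replicate 4 falls within the cachexia range, and the change was -0.59 (adjusted p = 0.013). The region at +34360 bp rose in 8025 by 0.93, with an adjusted p of 0.055 without replicate 2 of PBS.

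The 2 wasting models share no library, and their calls can be set beside each other. Both come from 1 fit with a common estimate of each region's spread, so the calls are not fully independent. Of the 308 regions, 14 were called in both, all in the same direction, which is 38.9% of the C26 calls and 29.2% of the 8025 calls. The 3 that rose in both all belong to Foxa2 (-33600, -33363 and -67785 bp). The 11 that fell in both were 5 of Foxa1, 2 of Nr5a2 and 1 each of Foxa2, Foxa3, Onecut1 and Prox1. Of all regions called in the whole table, 41.5% of the C26 calls and 47.1% of the 8025 calls were shared, 99.8% of them in the same direction, and 5.83% of all regions were called in both against 4.55% of these. Across the 308 regions, which are not independent, Pearson's r of the changes was 0.45, against 0.62 across all regions. No region differed between the 2 models past the test by limma (0.103% of all regions did), 49 had an unadjusted p under 0.05, and edgeR called 0 and DESeq2 2.

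**Figure D4:**
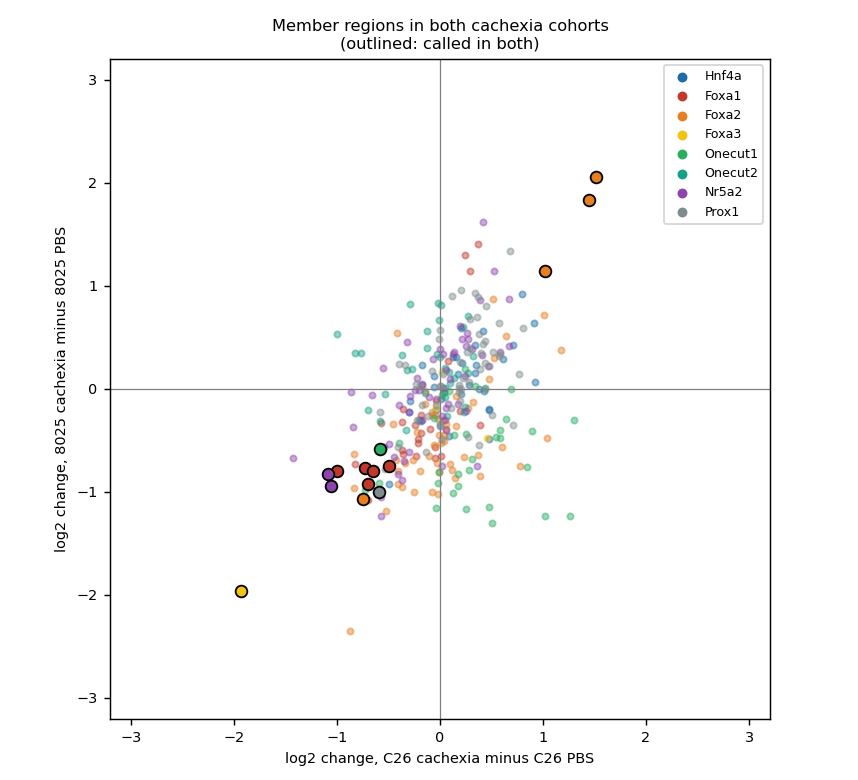
Log2 change of each of the 308 regions in C26 cachexia (x axis) against that in 8025 cachexia (y axis), each against its own PBS controls and coloured by gene. Outlined points were called in both models. The 14 outlined points lie where both changes have the same sign, 3 higher and 11 lower.

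Pre-cachexia, the C26 stage before weight loss, showed 1 region higher (Foxa2 at +46690 bp) and 1 lower (Nr5a2 at -10735 bp), 0.649% of the regions against 1.27% over the whole table (0.970% higher and 0.296% lower). An unadjusted p under 0.05 was reached by 51. With library totals the split was 4 higher and 0 lower. Without replicate 4 of C26 PBS 8 regions were called, without replicate 1, 2 or 3 of C26 PBS or replicate 4 of pre-cachexia 1, and without replicate 1 of pre-cachexia 0.

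From pre-cachexia to cachexia, 10 regions rose and 9 fell, 6.17% against 5.40% of all regions (2.16% higher and 3.24% lower). Prox1 had 5 higher and 0 lower, Hnf4a 3 and 0, Foxa1 0 and 3, Nr5a2 2 and 4, and Foxa3 and Onecut2 each 1 lower. Nr5a2 at -1765 bp, in intron 1, fell from 80.8 ± 21.3 in pre-cachexia to 34.1 ± 7.79 in cachexia (-1.16 ± 0.35, adjusted p = 0.049, n = 4 each), with 33.6 ± 13.9 in PBS. Library totals gave 0 higher and 5 lower. The number called dropped from 19 to 3 without replicate 2 of pre-cachexia, to 9, 6 and 5 without replicates 2, 3 and 4 of cachexia, and to 10 without replicate 4 of pre-cachexia. These 3 C26 comparisons share libraries and are not independent of one another.

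The weight-stable tumors changed no region of the 8 genes past limma's test. For NC26 against its PBS controls 0 of 308 were called (0.186% over the table), 30 had an unadjusted p under 0.05, and edgeR and DESeq2 called 0. Without replicate 3 of NC26 PBS 1 was called. For MC38 0 were called (0.0186% over the table), 25 had an unadjusted p under 0.05, edgeR called 0 and DESeq2 2. Without replicate 1 of MC38 tumor or replicate 2 of MC38 PBS 1 was called.

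Whether cachexia-inducing and weight-stable tumors differed was tested as the difference between their changes. For C26 minus NC26, 2 regions were higher and 1 lower (0.974%, against 2.14% over the table, 1.04% higher and 1.10% lower), namely Nr5a2 at -49946 bp (0.74 ± 0.20, adjusted p = 0.04), Prox1 at +62583 bp (0.67 ± 0.19, adjusted p = 0.045) and Nr5a2 at -92917 bp (-1.26 ± 0.32, adjusted p = 0.021). None was called with library totals. The number was 7 without replicate 2 of NC26 tumor, 0 without replicate 3 of NC26 tumor, and 1 without replicate 3 or 4 of C26 cachexia, replicate 4 of C26 PBS or replicate 3 of NC26 PBS.

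For 8025 minus MC38, 1 region was higher and 7 lower (2.60%, against 1.70% over the table, 0.922% higher and 0.778% lower). The higher one was Nr5a2 at +93977 bp. The lower ones were 4 of Foxa2 (-76, -104, +202 and +81458 bp), and 1 each of Foxa1 (+3350 bp), Foxa3 (+5343 bp) and Nr5a2 (-10735 bp). With library totals 1 was higher and 2 lower. The number called was 4 or 5 without replicate 1 or 2 of 8025 PBS, replicate 3 of 8025 cachexia, replicate 2 of MC38 PBS or replicate 3 of MC38 tumor, and 13 without replicate 4 of 8025 PBS or of MC38 PBS. By the numbers in their library names, all C26 libraries belong to 1 of 2 library series and all 8025 libraries to the other, so that series and cohort cannot be told apart between the 2 wasting models. NC26 and MC38 have 2 libraries of each group in each series.

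Summed over all regions within 100 kb, Foxa1 lost signal in both wasting models. The sums were 590, 872, 752 and 775 tags in C26 PBS, 679, 1047, 796 and 788 in pre-cachexia and 681, 640, 589 and 603 in cachexia. The cachexia and PBS libraries overlap through PBS replicate 1 (-0.32 ± 0.10, adjusted p = 0.017, in a comparison that called 19.9% of all genes). The call ended with library totals (0.36) and without PBS replicate 4 (0.096). In 8025 the sums were 813, 956 and 817 in PBS and 699, 621, 626 and 687 in cachexia, without overlap (-0.44 ± 0.10, adjusted p = 0.0022, 18.9% of all genes called, and 0.12 with library totals). Against pre-cachexia the C26 change was -0.35 ± 0.10 (adjusted p = 0.016, 8.76% of all genes called, 0.17 with library totals and 0.096 without pre-cachexia replicate 2). The difference of the Foxa1 change from that of the weight-stable tumor was called in neither model. It was -0.18 ± 0.14 for C26 minus NC26 (adjusted p = 0.53). For 8025 minus MC38 it was -0.46 ± 0.14 (adjusted p = 0.057), and was called in 5 of 28 alternatives.

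Foxa2 lost summed signal in 8025 cachexia, from 2099, 2337 and 2139 tags in PBS to 1940, 1670, 1457 and 1799 (-0.41 ± 0.09, adjusted p = 0.00081, and 0.16 with library totals). No cachexia library reaches the PBS range. The difference from the MC38 change was -0.48 ± 0.12 (adjusted p = 0.016, 3.61% of all genes called). It ended with library totals (0.5) and without replicate 1 (0.056) or 2 (0.066) of 8025 PBS or replicate 3 of MC38 PBS (0.056). Prox1 gained between pre-cachexia, at 1373, 1486, 1382 and 1406 tags, and cachexia, at 1664, 1868, 1661 and 1653 (0.30 ± 0.08, adjusted p = 0.018). That call ended with library totals (0.51) and without replicate 2 of pre-cachexia (0.083) or of cachexia (0.057). The sums of Hnf4a, Nr5a2, Foxa3, Onecut1 and Onecut2 were not called in any comparison of a tumor group with its PBS controls, pre-cachexia included. For Onecut1 this hung on single control libraries. Its pre-cachexia change (0.64 ± 0.23, adjusted p = 0.15) was called in 1 of 21 alternatives, without C26 PBS replicate 4. Its 8025 cachexia change (-0.45 ± 0.25, adjusted p = 0.22) was called in 1 of 20, without 8025 PBS replicate 4. Pre-cachexia called 2.34%, NC26 0.0596% and MC38 0.0745% of all genes. Between strains, the Onecut1 sum was lower in BALB/c controls (-0.58 ± 0.19, adjusted p = 0.025, in a comparison that called 23.4% of all genes), a call that ended in 9 of 28 alternatives, the replicate block among them (0.081).

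**Figure D5:**
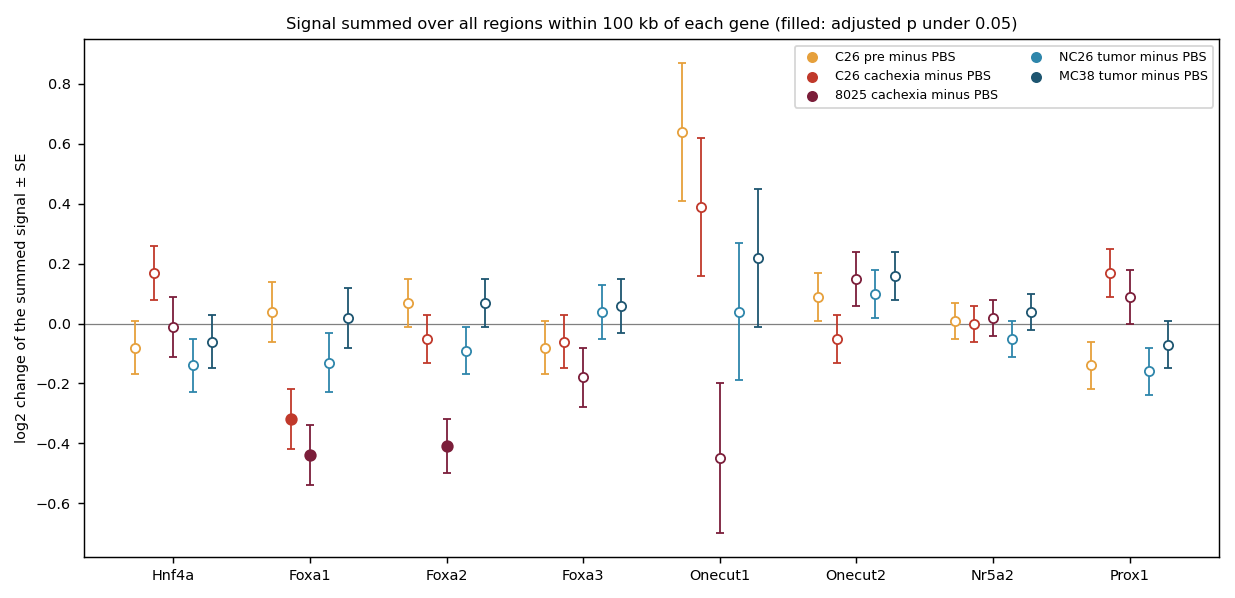
Change of the summed signal within 100 kb of each gene in 5 comparisons. The y axis is the log2 change with its SE, and filled points have an adjusted p under 0.05. Filled points are Foxa1 in C26 cachexia (-0.32) and in 8025 cachexia (-0.44) and Foxa2 in 8025 cachexia (-0.41).

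PBS controls of the strains were also compared. Between the 8 BALB/c and the 7 C57BL/6N control libraries, 10 regions were higher and 17 lower in BALB/c (8.77%, against 13.5% of all regions, 6.42% higher and 7.04% lower). With library totals the split was 3 and 18. Onecut1 had 0 higher and 8 lower. Its region at +35032 bp (chr9:74896753-74897153) held 33.1, 57.4, 41.8 and 38.4 tags in C26 PBS, 54.3, 76.6, 38.1 and 44.6 in NC26 PBS, 87.9, 101 and 85.7 in 8025 PBS and 62.1, 81.1, 56.9 and 103 in MC38 PBS. BALB/c libraries were lower with some overlap (-0.81 ± 0.17, adjusted p = 0.00064), and the promoter region followed (-0.75 ± 0.18, adjusted p = 0.0039).

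A clear strain difference was seen at a weak Foxa1 region at +33029 bp, which read 3.10 to 11.9 tags in the 8 BALB/c controls against 0 to 2.69 in the 7 C57BL/6N controls. The groups do not overlap (1.92 ± 0.35, adjusted p = 4.5e-05), and tumor-bearing C57BL/6N mice read 0 to 1.94. A sequence difference between strains and a difference in accessibility cannot be told apart here. Foxa2 at +202 bp was lower in BALB/c by -0.29 ± 0.10 (adjusted p = 0.037, and 0.13 with library totals). The most open Onecut2 region, at +10401 bp, was lower by -0.28 ± 0.07 (adjusted p = 0.0042), and Prox1 at +43981 bp higher by 0.53 ± 0.11 (adjusted p = 0.0003).

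Other genes of the network moved in part. A list of 18 further hepatocyte factors, among them Cebpa, Hhex, Rxra and the bile acid receptor Nr1h4, held 413 regions. In C26 cachexia 23 of these were higher and 35 lower (14.0%, at a median of -0.11). Among all regions 14.0% were called, 6.91% higher and 7.13% lower. In 8025 cachexia 14 were higher and 43 lower (13.8%, at a median of -0.16). Among all regions 12.4% were called there, and more of them were higher (6.99%) than lower (5.38%). The list thus leaned to lower calls in 8025 where the whole did not, a difference that was not tested. With the weight-stable tumors 0 regions of the list were called. Cebpa, a factor of gluconeogenic and lipid genes, fell at +3576 bp in C26 from 109 ± 25.1 to 37.4 ± 8.65 tags (-1.57 ± 0.19, adjusted p = 4.5e-07, n = 4 each). In 8025 it fell at +4268 bp by -2.15 ± 0.23 (adjusted p = 4e-07). Hhex, a homeodomain factor of early liver, fell at -801 bp in 8025 by -1.19 ± 0.15 (adjusted p = 3.7e-07), and Nr1h4 rose at -19591 bp in C26 by 0.99 ± 0.15 (adjusted p = 3.5e-06).

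Regions of 14 known target genes of these factors, such as Alb, Apob, Apoa1 and Pklr, numbered 376. In C26 cachexia 27 were higher and 14 lower (10.9%, against 14.0% of all regions), and from pre-cachexia to cachexia 56 and 5 (16.2% against 5.40%). In 8025 cachexia 5 were higher and 24 lower (7.71% against 12.4%), and in pre-cachexia 1 and 7 (2.13% against 1.27%). With the NC26 tumor 1 was higher, Alb at -29583 bp (1.02 ± 0.22, adjusted p = 0.036), and 1 lower, Cyp8b1 at +3073 bp (-0.76 ± 0.16, adjusted p = 0.018), which is 0.532% against 0.186%. With MC38 0 were called. Alb at -29789 bp rose in C26 by 1.21, and Apob at +60952 bp fell by -1.21. Pklr, encoding liver pyruvate kinase, fell in 8025 at -2363 bp by -1.92. A region at -25967 bp of Apoa1 rose in 8025 by 1.34.

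The promoters whose signal ran most alike over the 35 libraries differed from gene to gene. Among 24939 promoter regions, Pearson's r was highest between Onecut1 and Cish (0.90), Foxa2 and Rb1cc1 (0.84), Foxa1 and Rad23b (0.78), Nr5a2 and Bdh1 (0.76), Onecut2 and Hdac1 (0.75), Prox1 and Apoc2 (0.74), Hnf4a and Col18a1 (0.69), and Foxa3 and Bbs10 (0.63). The points share their libraries, and with them depth and the share of signal in promoters, whose own correlation with the 8 genes ran from -0.11 for Nr5a2 to 0.38 for Foxa3.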

How the data were processed

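ATAC-seq was made from 35 libraries of purified hepatocyte nuclei, paired-end after 12 PCR cycles per the labels' protocols. BWA 0.7.5a-r405, SAMtools and HOMER with mm10 are named in the submitters' processing notes. The deposited values are signal per merged region, tags scaled by the authors to 10 M per library per the file headers. All values were whole read ends (of 0.5 tag, within 0.05). The design foresaw counts, and since the values are normalized, its stated fallback, limma, was the main test. Regions kept by edgeR's filterByExpr (10 per library, 15 in all) were divided by TMM factors, and log2(value + 1) was tested with limma-trend 3.58.1 (robust) over 177251 regions, with 9 groups and the library series as covariate (25 residual degrees of freedom, used for 95% intervals), and Benjamini-Hochberg adjustment at 0.05. A fold is on this scale and understates changes of low regions. Region sums per gene were tested alike over 20142 genes. edgeR 4.0.16, DESeq2 1.42.0 (both on recovered read ends), other scalings, pseudocounts, filters, windows and left-out libraries were alternatives, and the fit was checked on simulated data (R 4.3.3, Python 3.11.15). Named regions were the promoter and the highest distal region of each gene and, per gene and comparison, the up to 3 with the lowest adjusted p. Nr5a2 at -1765 bp, the MC38 and NC26 values at called regions and other regions beyond that rule were chosen after their values were seen. The members and lists were chosen with earlier results of these data known. One gene of the list of further hepatocyte factors is not reported here, and the list's counts leave it out.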

Additional observations from a re-analysis of the deposited data

Results flagged for a closer look

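In groups of 4, a library was set apart where its gap to the nearest other exceeded Dixon's critical value, which chance reaches in about 1 in 20 groups, and 10 of 212 groups had one. These were Hnf4a +8433 bp in C26 cachexia replicate 2 (96.5 tags, the others 80.4 to 81.9), Foxa1 +68 bp in C26 PBS replicate 1 (52.9, others 78.6 to 82.8), and Foxa1 +10935 bp in pre-cachexia replicate 2 (27.9, others 16.2 to 17.0). Onecut2 -407 bp stood apart in C26 cachexia replicate 4 (133, others 162 to 167) and Onecut2 +10401 bp in NC26 tumor replicate 1 (249, others 188 to 198), the library of lowest depth. Nr5a2 -299 bp stood apart in pre-cachexia replicate 2 (171, others 132 to 136) and in 8025 cachexia replicate 1 (177, others 157 to 158). The remaining ones were Prox1 +62241 bp in NC26 PBS replicate 2 (102, others 136 to 141), Foxa2 -33363 bp in C26 PBS replicate 3 (2.79, others 4.70 to 5.07) and Foxa3 +5343 bp in C26 PBS replicate 4 (39.1, others 13.2 to 15.3).

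The change differed between the cachexia-inducing and the weight-stable tumor by limma's interaction test at 11 regions. For C26 against NC26 the differences (log2) were -1.26 for Nr5a2 -92917 bp (adjusted p = 0.021), 0.74 for Nr5a2 -49946 bp (0.04) and 0.67 for Prox1 +62583 bp (0.045). For 8025 against MC38 they were -2.90 for Foxa2 +81458 bp (0.0045), 1.46 for Nr5a2 +93977 bp (0.0056), -0.86 for Foxa2 -76 bp (0.013), -1.07 for Nr5a2 -10735 bp (0.015), -0.74 for Foxa2 +202 bp (0.017), -1.05 for Foxa1 +3350 bp (0.023), -0.71 for Foxa2 -104 bp (0.026) and -2.36 for Foxa3 +5343 bp (0.044).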

How the results depend on the processing

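No called change reversed under any alternative. Values of the other sign than the fit arose only for changes that were not called, at 65 of 246 named results of regions (228 values, 23 of them with library totals, fitted changes of at most 0.16 in size) and 33 of 80 summed signals (96 values, 14 with library totals, at most 0.14). Of 5617 values of named regions under alternatives 5322 kept their side of the threshold, 281 lost a call and 14 gained one, and of 1936 values of summed signal 1906, 22 and 8. The causes of the moves below were not tested, except that the window of 10 kb and left-out libraries test fewer regions or samples. The counts of called regions moved by over 1.5 times as follows. C26 cachexia against PBS (36) gave 12 within 10 kb and 25 to 35 with a library left out. Pre-cachexia against PBS (2) gave 1 with RLE factors, a pseudocount of 0.5, no filter, no library series or the replicate block, 4 with library totals, 10 when fitted on the compared cohorts only, 6 with DESeq2, 0 within 10 kb and 0 to 8 with a library left out. Cachexia against pre-cachexia (19) gave 5 with library totals, 11 with the promoter share as covariate, 29 with DESeq2, 9 within 10 kb and 3 to 19 with a library left out. 8025 cachexia against PBS (48) gave 30 with library totals, 20 within 10 kb and 24 to 51 with a library left out. NC26 (0) and MC38 (0) gave 0 to 1 with a library left out, and MC38 2 with DESeq2. C26 minus NC26 (3) gave 0 with library totals, 1 over regions that do not overlap, 0 within 10 kb and 0 to 7 with a library left out. 8025 minus MC38 (8) gave 3 with library totals, 14 with DESeq2, 5 within 10 kb and 4 to 13 with a library left out. C26 minus 8025 (0) gave 1 with a pseudocount of 5 or the compared cohorts only, 2 with DESeq2 and 0 to 0 with a library left out. BALB/c against C57BL/6N controls (27) gave 17 with the replicate block or the promoter share, 16 with the compared cohorts only, 12 within 10 kb and 18 to 36 with a library left out. Replicate numbers did not pair the samples (correlations of deviations -0.208 to 0.087), and with the replicate block the other counts were 36 for C26 cachexia, 17 from pre-cachexia to cachexia, 39 for 8025, 0 for NC26 and MC38, 2 for C26 minus NC26, 8 for 8025 minus MC38 and 0 for C26 minus 8025. Counting error weighs most on regions of a few tags. Without the library of 3.47 M tags NC26 still gave 0 calls and C26 minus NC26 3.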
